A study of Mus musculus with 8 samples.

Results

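Barcodes called promyelocyte-like granulocyte precursors here were 384 of 12564 cell barcodes among single cells from the tibia of adult mice. They are the barcodes with at least 1600 detected genes and at most 20% mitochondrial UMIs (unique molecular identifiers, each counted as 1 captured RNA molecule) in which Elane, Prtn3 and Mpo together reached 40 UMIs per 10000 and Elane and Mpo reached 3 UMIs each. The measured levels of these 3 genes therefore chose the members, and their height is a description and not a finding. They were described against the 2992 other barcodes with at least 50 S100a8 UMIs per 10000 and fewer than 3 Elane UMIs, which are called the S100a8 comparison below.

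Tibiae were taken from 3 adult mice at P56, and cells were released from their trabecular bone together with some growth plate. All mice carried the same alleles, which the labels give as MMP14 F/+, COL10A1cre, R26-tdT and Col1a1-2.3-GFP, with no other genotype or treatment beside them. Cre was driven by the Col10a1 gene, which is active in hypertrophic chondrocytes, and Col1a1-2.3-GFP marks osteoblasts, so these alleles and the R26-tdT reporter mark skeletal cells, while MMP14 F/+ is a conditional allele and marks no cell. Per the methods, the first digests, which held most blood cells, were discarded and tdTomato-positive cells were enriched, so shares of barcodes here are not shares of the marrow. The labels list 8 samples of this single group, but the matrix is a pool whose barcodes do not say which sample or mouse they came from. It was therefore treated as 1 sample, no difference has a replicate check, and every interval is an exact 95% interval that covers counting error only.

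Neutrophils are made in the marrow from progenitors that pass through the promyelocyte and myelocyte stages before they stop dividing. Promyelocytes fill the primary, or azurophil, granules with serine proteases and myeloperoxidase. Myelocytes make the proteins of the secondary, or specific, granules, and tertiary granule proteins and chemokine receptors follow in maturing neutrophils. The transcription factors C/EBPα, PU.1, GFI1 and C/EBPε are known for their roles along this path, and IRF8 and KLF4 for theirs in monocytes.

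The 5 genes that mark these cells lie at 4 places in the genome (coordinates in mm10). Elane, which encodes neutrophil elastase, spans 1969 bases at chr10:79886247-79888215 on the plus strand. Prtn3, which encodes proteinase 3, lies at chr10:79874476-79883174 on the same strand and ends 3072 bases before Elane. Mpo, which encodes myeloperoxidase, lies at chr11:87793581-87804413 (plus), Ctsg, which encodes cathepsin G, at chr14:56099881-56102574 (minus) and Ms4a3, a membrane protein of granulocyte-monocyte progenitors, at chr19:11629496-11640851 (minus). Their promoter windows, from 250 bases before to 50 after the RefSeq start on GRCm38.p6, are shown because these genes chose or mark the cells. Capitals mark the letters GAGGAAG, a form bound by PU.1, and TTNNGNAA, a form bound by C/EBP factors, searched on both strands.

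Elane: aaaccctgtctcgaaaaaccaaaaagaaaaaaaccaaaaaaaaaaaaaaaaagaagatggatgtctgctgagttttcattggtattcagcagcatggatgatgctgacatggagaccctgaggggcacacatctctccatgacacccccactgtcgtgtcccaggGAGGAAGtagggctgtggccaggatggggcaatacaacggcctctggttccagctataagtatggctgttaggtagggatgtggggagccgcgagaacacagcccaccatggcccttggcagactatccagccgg
Prtn3: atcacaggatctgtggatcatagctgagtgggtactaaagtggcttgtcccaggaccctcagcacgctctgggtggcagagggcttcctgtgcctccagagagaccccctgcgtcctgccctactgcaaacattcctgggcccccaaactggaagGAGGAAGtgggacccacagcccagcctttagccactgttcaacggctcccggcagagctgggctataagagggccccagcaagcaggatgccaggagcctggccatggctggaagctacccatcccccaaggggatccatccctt
Mpo: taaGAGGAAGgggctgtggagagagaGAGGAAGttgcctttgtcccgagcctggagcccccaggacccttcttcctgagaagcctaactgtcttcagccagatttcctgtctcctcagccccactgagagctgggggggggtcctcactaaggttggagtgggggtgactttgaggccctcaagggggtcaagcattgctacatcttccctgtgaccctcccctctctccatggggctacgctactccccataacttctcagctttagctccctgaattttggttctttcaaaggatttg
Ctsg: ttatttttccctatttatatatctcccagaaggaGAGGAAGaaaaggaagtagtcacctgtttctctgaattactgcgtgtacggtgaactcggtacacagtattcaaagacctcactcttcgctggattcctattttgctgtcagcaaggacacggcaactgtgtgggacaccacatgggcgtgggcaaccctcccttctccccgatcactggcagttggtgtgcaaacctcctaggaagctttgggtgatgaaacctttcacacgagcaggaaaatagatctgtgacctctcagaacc
Ms4a3: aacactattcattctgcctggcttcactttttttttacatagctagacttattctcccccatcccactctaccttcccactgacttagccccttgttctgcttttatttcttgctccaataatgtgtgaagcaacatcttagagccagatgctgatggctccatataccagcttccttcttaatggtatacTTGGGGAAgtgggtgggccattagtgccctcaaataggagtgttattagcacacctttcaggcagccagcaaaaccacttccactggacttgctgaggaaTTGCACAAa

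The windows lie at chr10:79886062-79886361 (Elane), chr10:79879417-79879716 (Prtn3), chr11:87793534-87793833 (Mpo), chr14:56102525-56102824 (Ctsg) and chr19:11640802-11641101 (Ms4a3). GAGGAAG was present in the windows of Elane (position -85 from the start), Prtn3 (-95), Ctsg (-216) and Mpo (-247 and -224), and in 13.6% of 32851 windows of all genes. The windows of Cst7 and Nkg7, which are not printed, were searched as well and held 0 matches, as did that of Ms4a3. The Elane and Prtn3 windows also held AACGG, a form bound by MYB, at -50 and -55, as did 17.4% of all windows. The Ms4a3 window held TTNNGNAA at -59 and 41 and the Cst7 window at -230 and -3. These letters were present in 40.7% of all windows. These matches are letters only.

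The genes within 60000 bases of Elane and Prtn3, Mpo and Ctsg differed widely in the same barcodes, from 0 UMIs to 1698, and those near Ms4a3 were not counted. Cfd, which encodes complement factor D and lies 2638 bases after Elane, gave 2 UMIs in the 384 members, against 82507 of Elane. Lpo, a peroxidase gene 2015 bases after Mpo on the opposite strand, gave 0, and Epx, the eosinophil peroxidase gene, gave 1. Of the mast cell protease and granzyme genes within 60000 bases of Ctsg, Mcpt2, Mcpt4, Gzme, Gzmd and Gzmg gave 0 UMIs and Mcpt8 gave 332, of which 243 were in a single barcode. Ptbp1, 9705 bases before Prtn3 and broadly expressed, gave 918, and farther away Supt4a, near Mpo, gave 1698. Around Elane and Prtn3, Arid3a gave 461, Palm 394 and R3hdm4 364.

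The members held 8511546 UMIs, or 9.31% of the 91463572 in the pool. Their depth ran from 3741 to 72053 UMIs per barcode with a median of 20950.5, and the median member had 3843 genes and 3.22% mitochondrial UMIs. The members made up 8.61% (7.80% to 9.47%) of the 4460 barcodes past both limits. The S100a8 comparison was shallower, with a median of 4974.5 UMIs, and 1109 of its barcodes passed the gene floor. Of the comparison barcodes, 2955 held at least 3 UMIs of the neutrophil markers, while 10 were cartilage barcodes and 127 held over 1000 globin UMIs per 10000.

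The summed level of Elane, Prtn3 and Mpo ran from 41.0 to 730 per 10000 over the members, with a median of 289. Just inside the limit were members at 41.0, 41.7 and 42.0, and just outside were barcodes at 38.7, 38.5 and 36.9. Of the barcodes past both limits, 50 lay between 20 and 40 and 50 between 40 and 80, against 3012 below 1 and 169 at 320 or above, so few barcodes were near the limit. Elane ran from 1.40 to 306 UMIs per 10000 with a median of 110. Prtn3 ran from 3.32 to 335 (median 115) and Mpo from 1.53 to 267 (median 57.9). Ctsg, which the rule did not use, ran from 0 to 122 with a median of 29.4 and was seen in 382 members, and Ms4a3 ran from 0 to 32.0 with a median of 10.4 and was seen in 98.2%.

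Together, Elane, Prtn3, Mpo and Ctsg made up 2.94% of all member UMIs and up to 8.08% in a single member, against 0.00927% in the S100a8 comparison. Cartilage barcodes, which should lack these transcripts, served as the measure of free RNA. Among 265 of them with a median of 17944 UMIs, Elane was seen in 12.1%, Prtn3 in 17.4%, Mpo in 12.5%, Ctsg in 6.79% and Ms4a3 in 3.77%. At 3000 UMIs per barcode, Ctsg was seen in 91.8% of members, 3.19% of comparison barcodes and 1.00% of cartilage barcodes. Ms4a3 was seen in 85.6%, 7.42% and 0.681%, in 50.5% of the 64 members with monocyte genes described below, in 13.1% of comparison barcodes past the gene floor and in 24.7% of myelocyte-like barcodes. The highest Ctsg level in a cartilage barcode was 1.40 per 10000.

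**Figure D1:**
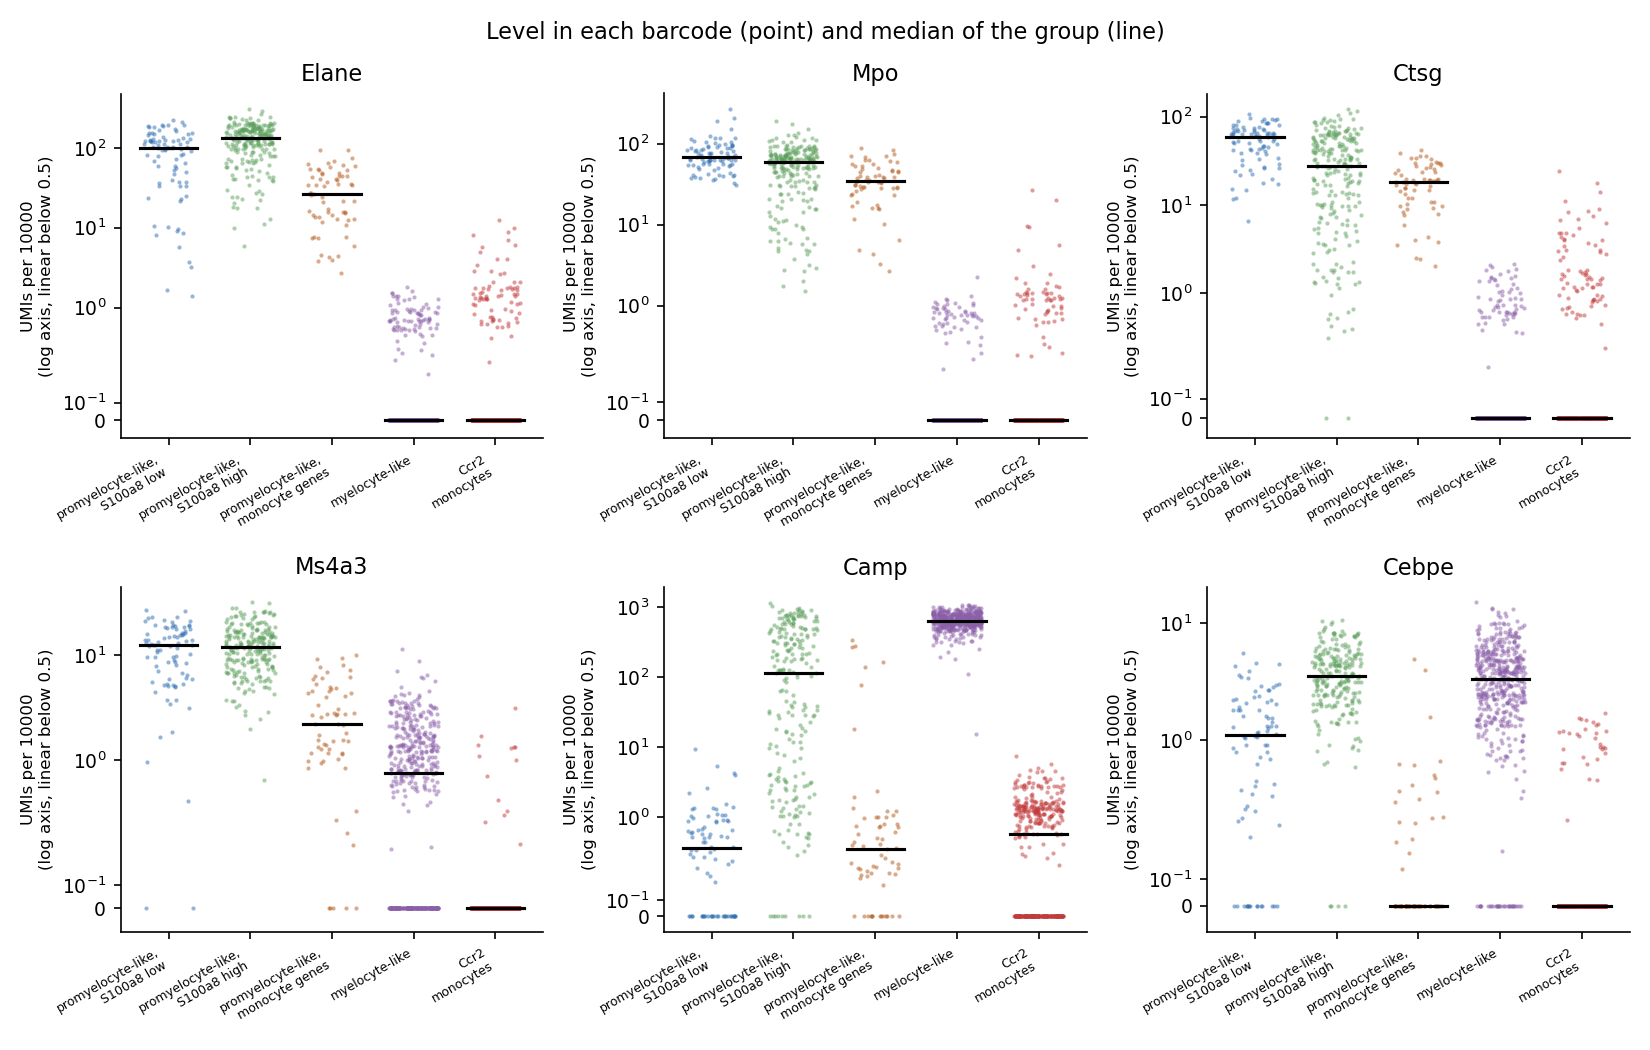
Level of 6 genes in UMIs per 10000 (log axis, linear below 0.5) in each barcode of the 3 kinds of promyelocyte-like barcode and of 2 neighbouring groups, with the median as a line. Elane, Mpo and Ctsg were high in all 3 kinds and had medians of 0 in myelocyte-like barcodes and Ccr2 monocytes, while Camp spread from 0 to 1172 among the promyelocyte-like barcodes with high S100a8.

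The label was checked against the markers of promyelocytes and of other cell types. The 5 promyelocyte markers summed to between 47.3 and 821 per 10000 in a member (median 339), but 3 of them are genes of the rule, so of these only Ctsg and Ms4a3, given above, bear on the label. The 9 markers of maturing neutrophils were all seen, at 193 per 10000 over the members, with a median of 10.8 and up to 1563 in a member, against 1055 in the S100a8 comparison. The 9 monocyte markers were also all seen, at 17.2 per 10000 over the members, 9.66 in the comparison and 44.7 in Ccr2 monocytes. Members thus also held neutrophil and monocyte transcripts, which are described by kind of member below. Of the 5 T and NK cell markers, Cd3e, Cd3g and Ncr1 were at 0 in all 384 members, while Trbc2 and Nkg7 were seen. The 5 B cell markers were all seen, at 1.00 per 10000 over the members and 1.82 in the comparison. Nkg7, a granule membrane protein best known from natural killer and T cells, was seen in 366 members at a median of 6.23 per 10000 and in 1.89% of cartilage barcodes. Of the eosinophil markers, Il5ra was at 0 and the list summed to 0.0928 per 10000. Of the 3 endothelial markers, Cdh5 and Kdr were at 0 and Pecam1 was seen. This list summed to 0.160 per 10000 over the members and 0.118 in the comparison.

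Genes of chondrocytes, B cells, basophils and mast cells, C1q macrophages or T and NK cells reached 5 per 10000 in 29 members. B cell genes did so in 21, chondrocyte genes in 5, basophil and mast cell genes in 4, a C1q macrophage gene in 1 and T and NK genes other than Nkg7 in 0. A single member held 597 of the 600 Prss34 UMIs and another held 59.7% of the Col2a1 UMIs. Erythroid genes are not among these and were seen throughout, with a median of 5.43 per 10000 and up to 2043 in a member, against a median of 21.7 in the comparison. Scrublet called 9 members as doublets. The part of mixed barcodes in the results was not tested, but counts without the 29 members are given in the closing section. Vcam1, an adhesion molecule placed among the macrophage markers and singled out after its values were seen, gave 203 CPM (UMIs per 1000000) in the members against 17.9 in the S100a8 comparison and was seen in 255 members, while C1qa gave 10 UMIs in 2 members.

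Beside the S100a8 comparison, 3224 of 10165 genes with at least 50 UMIs (31.7%) were at least 2-fold higher in the members and 1771 (17.4%) at least 2-fold lower, with a median log2 ratio of 0.38 over all genes. CPM of summed UMIs were compared, and ratios are best read beside that median, since S100a8, S100a9, Camp, Ngp and Ltf took 28.1% of the comparison's UMIs and 6.78% of the members'. Centred on the median of all genes, 2274 were at least 2-fold higher and 2460 lower, and without Elane, Prtn3, Mpo, S100a8 and S100a9 in the totals 2667 and 2132. Without secondary and tertiary granule genes, S100a8, S100a9 and globins in the totals, an alternative added after the data were seen, 1899 genes were at least 2-fold higher and 2829 at least 2-fold lower. In sums over barcodes, fewer molecules per cell and fewer cells with the molecule cannot be told apart, so shares of barcodes are given beside the main genes.

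The 15 genes with the highest ratio held the 3 genes of the rule and Ctsg. Elane was 610-fold higher (log2 ratio 9.25, interval 9.09 to 9.41), Mpo 282-fold and Prtn3 236-fold, which follows from how the members were chosen. Ctsg gave 3486 CPM against 11.5, which is 302-fold (log2 8.24, 8.05 to 8.43). Cst7, which encodes cystatin F, an inhibitor of the cathepsins that activate granule proteases, gave 180 CPM against 1.47 and was seen in 346 members and 28 comparison barcodes (log2 6.94, 6.42 to 7.51).

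Several of these genes have no fixed place in the granulocyte lists. Slc4a8, a bicarbonate transporter, gave 198 UMIs in 113 members against 2 in the comparison. Dmkn, which encodes dermokine, gave 903 UMIs in 251 members against 26, and Nkg7 gave 631 CPM against 16.4 (log2 5.27). Mgl2, a C-type lectin, was seen in 188 members (log2 5.86), Kcnk12, a potassium channel gene, in 167 (5.93) and Gria3, a glutamate receptor subunit, in 129 (5.52). Nme4 (5.53), Trim45 (5.20) and Tfec (5.18) were each seen in 134 to 153 members. Plppr3 was seen in 152 members (5.43), and its gene model overlaps the first bases of the Prtn3 gene model on the opposite strand, although the RefSeq start used for the Prtn3 promoter lies further inside.

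Of the 15 genes with the lowest ratio, Fpr1, Mmp9, Retnlg and Stfa2l1 belong to the list of tertiary granule and mature neutrophil genes and Mmp8 to the secondary granule list. Fpr1, the formyl peptide receptor, gave 7 UMIs in 6 members against 2711 in 1110 comparison barcodes (log2 -7.34, -8.65 to -6.29). Mmp8, neutrophil collagenase, gave 7.52 CPM against 955 (-6.99), Mmp9, gelatinase B, 8.69 against 896 (-6.69) and Ly6g, the antigen used to sort neutrophils, 4.58 against 394 (-6.43). Retnlg gave 163 CPM against 12409 (-6.25). Tarm1 (-6.76), Tmem45a2 (-6.57), Cd300ld (-6.35), Slfn1 (-6.35) and 1700047M11Rik (-6.07) gave between 1 and 10 UMIs in the members. Stfa2 (-6.41), Stfa2l1 (-6.33) and Gm5483 (-7.26), of the stefin family, and Gm14548 (-6.27) share sequence with near copies and are uncertain. Igfbp5 (-6.92) was concentrated in 27 comparison barcodes, of which a single one held 27.3% of its UMIs.

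**Figure D2:**
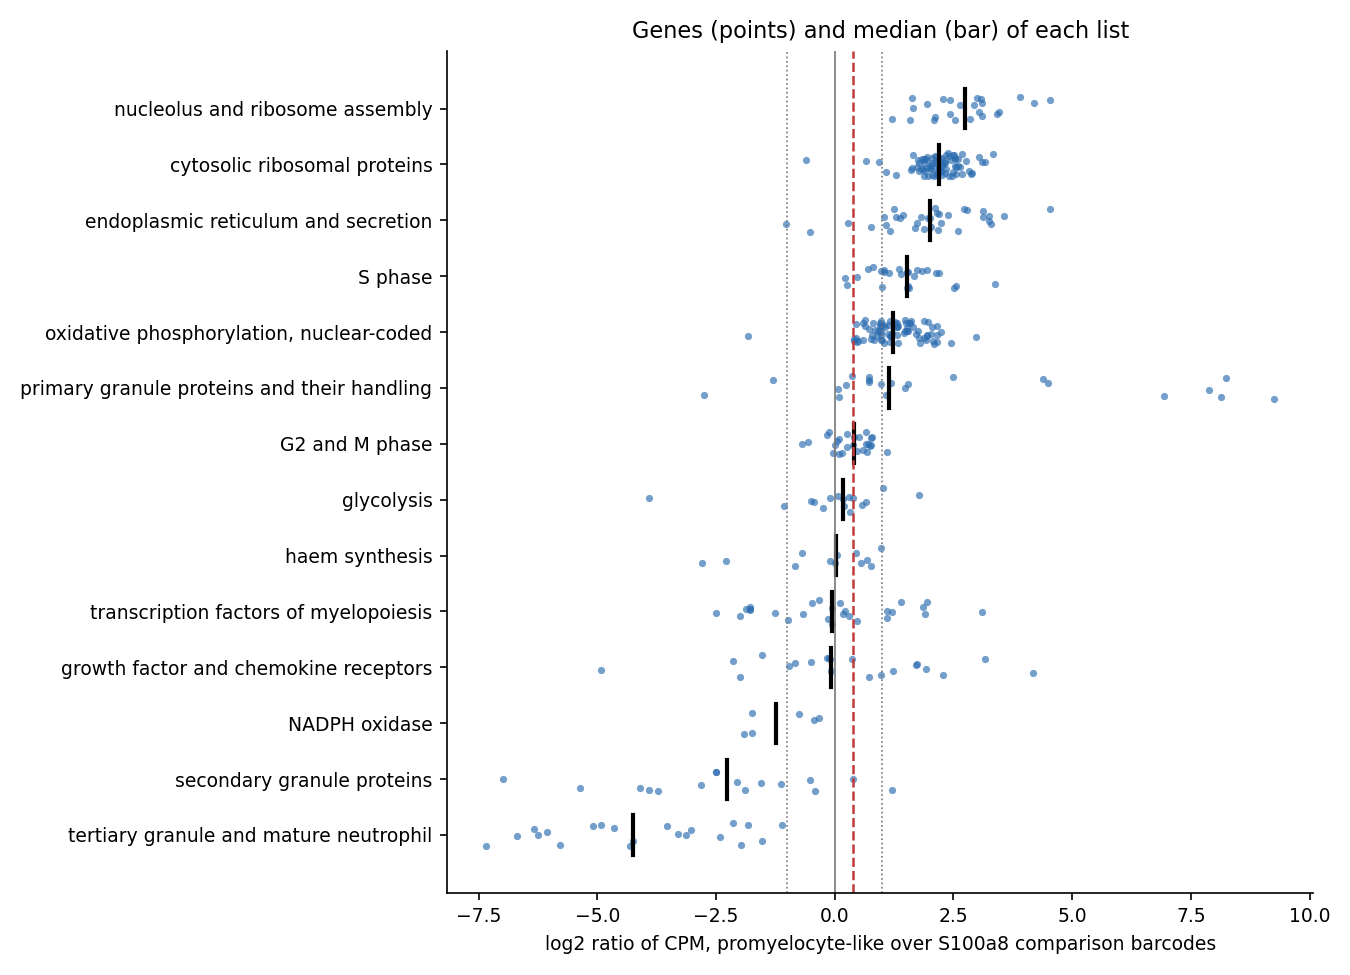
Log2 ratio of CPM between the promyelocyte-like barcodes and the S100a8 comparison for each gene (point) of 14 lists, with the list's median as a bar, the median of all genes (0.38) as a dashed line and the 2-fold limits as dotted lines. Nucleolar, ribosomal and endoplasmic reticulum genes lie to the right and secondary and tertiary granule genes to the left.

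Primary granule genes were the highest of the granule lists, secondary genes were mostly lower and tertiary genes were lower without exception. Of the 22 primary granule genes, 12 were at least 2-fold higher and 2 lower, with a median log2 ratio of 1.14, and 9 of the 19 that the rule did not use were higher, against 31.7% of all genes. Prss57, a further azurophil serine protease, gave 285 CPM against 13.5 (4.39) and Ms4a3 1037 against 46.1 (4.49). Lysosomal members such as Gaa (2.49), Gusb (1.48) and Ctsc, which encodes the cathepsin that activates the serine proteases (1.55), were also higher. Cd63, a granule membrane protein, was 1.09 and Srgn, the proteoglycan that packs the granules, 0.73. Lyz2, which encodes lysozyme and is made at several stages, was lower at 1273 CPM against 8623 (-2.76), as was Ctsd (-1.30).

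Of the 16 secondary granule genes, 12 were at least 2-fold lower and 1 was higher, with a median of -2.28, beside 17.4% lower among all genes. Ltf, which encodes lactoferrin, gave 206 CPM against 8498 (-5.37), Lcn2, lipocalin 2, 795 against 11901 (-3.90) and Ngp 4255 against 29882 (-2.81). Camp, the cathelicidin gene, gave 13840 against 40586 (-1.55), but was -0.78 when every barcode had the same weight. Fcnb, which encodes ficolin B, was the gene that was higher, at 704 CPM against 303 (1.21, 1.16 to 1.27), but it was under 2-fold beside comparison barcodes past the gene floor, when centred on the median of all genes and with the totals that leave out secondary and tertiary granule genes, S100a8, S100a9 and globins. All 21 tertiary granule and mature neutrophil genes were at least 2-fold lower, with a median of -4.24. Wfdc21 (-1.97), G0s2 (-3.03) and the chemokine gene Cxcl2 (-3.31) were the most abundant of them after Retnlg.

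Among 27 transcription factor genes compared, 8 were at least 2-fold higher and 7 lower, with a median of -0.06, beside 31.7% higher and 17.4% lower among all genes. The share that was higher was thus near that of all genes. Cebpa, which is needed to enter the granulocyte path, gave 179 UMIs against 50 and was 8.57-fold higher (log2 interval 2.64 to 3.58). Myb, a factor of dividing progenitors, gave 147 CPM against 38.5 (1.94), Gfi1 27.8 against 7.46 (1.90), Irf8 75.5 against 20.9 (1.85) and Myc 15.04 against 5.74 (1.39). Of the 643 Irf8 UMIs, 561 were in the 64 members with monocyte genes described below, which were chosen in part on Irf8, while low S100a8 members gave 23.8 CPM and high S100a8 members 7.12. Sox4 (1.21) and Etv6 (1.10) were also higher. Gata2 was 1.09 (41 UMIs, of which 41.5% were in a single member), and it turned to -0.79 without the 29 members that held genes of another type. Cebpe, which drives the secondary granule genes, was 0.31 and Spi1, which encodes PU.1, -0.14, both under 2-fold. Cebpe ran from -0.24 to 1.18 over the alternatives, with the highest value when every barcode had the same weight, so no direction is given for it.

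The lower factors were Fos (-2.50), Klf6 (-2.00), Ets1 (-1.87), Nfe2 (-1.79), Cebpb (-1.78), Id2 (-1.78) and Id1 (-1.25). Under 2-fold were Erg (-0.98), Lmo4 (-0.66), Zeb2 (0.47), Tcf4 (-0.47), Cebpd (-0.33), Runx1 (0.22), Jun (0.18), Hlf (0.11), Fli1 (-0.07) and Klf4 (-0.06). Under at least 1 alternative Erg, Lmo4 and Tcf4 were past 2-fold lower and Zeb2 past 2-fold higher, and Zeb2, Tcf4, Runx1, Jun, Hlf, Fli1 and Klf4 changed sign. Hoxa9, Meis1 and Mycn had 42, 41 and 4 UMIs in both groups together and were not compared. With secondary and tertiary granule genes, S100a8, S100a9 and globins out of the totals, 4 factors remained at least 2-fold higher. Myc, Sox4, Etv6 and Cebpb were each under 2-fold in at least 1 alternative.

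Of 21 receptor genes compared, 7 were at least 2-fold higher and 4 lower, near the 31.7% and 17.4% of all genes, so the counts show nothing particular to receptors. The lower count was 2 beside comparison barcodes past the gene floor and 7 with the totals that leave out secondary and tertiary granule genes, S100a8, S100a9 and globins. Cd34, a surface protein of progenitors, gave 32.0 CPM against 1.77 (4.18, 3.67 to 4.72) and was seen in 21.1% of members. Kit, the stem cell factor receptor, gave 39.4 against 8.05 (2.29) and Flt3 3.88 against 1.03 (1.91). Cd48 (3.17), Clec12a (1.72), Ccr2 (1.72) and Il3ra, which encodes the IL-3 receptor alpha chain (1.22), were also higher. Cxcr2, through which mature neutrophils leave the marrow, gave 4.46 CPM against 136 (-4.93). Csf3r, the G-CSF receptor gene, was -2.13 and Cxcr4, which holds cells in the marrow, -2.00. Itga4 (0.98), Itgb1 (0.73), Csf2ra (-0.50), Csf2rb (-0.85), Csf2rb2 (-0.97), Csf1r (0.36), Il6ra (-0.17), Il6st (-0.12), Cd93 (-0.08) and Fcgr3 (-0.10) were under 2-fold. Under at least 1 alternative Csf2ra, Csf2rb and Csf2rb2 were past 2-fold lower and Itga4 and Itgb1 past 2-fold higher, and Csf1r, Il6ra, Il6st, Cd93 and Fcgr3 changed sign. Il3ra (0.68) and Csf3r (-0.79) were under 2-fold in at least 1 alternative.

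Genes that make ribosomes and fold secreted proteins were higher almost throughout. All 24 nucleolar genes were at least 2-fold higher, beside 31.7% of all genes, with a median of 2.74. Npm1, which encodes nucleophosmin, gave 1724 CPM against 216 (3.00), Ncl, nucleolin, 823 against 262 (1.65), Nme1, a nucleoside kinase, 365 against 42.6 and Nop10 was 3.03. Of 79 ribosomal protein genes compared, 76 were higher, with a median of 2.20, and they took 25.3% of member UMIs against 5.52% of comparison UMIs and 6.73% of those past the gene floor. Among the most abundant were Rps27a (1.87), Rpl13 (2.59) and Rps24 (2.04). Many of these genes have near-identical pseudogenes, so single values are uncertain.

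Of 34 endoplasmic reticulum genes, 30 were higher and 1 was lower, with a median of 2.01, beside 31.7% higher and 17.4% lower among all genes. Calr, which encodes the chaperone calreticulin that binds myeloperoxidase, gave 969 CPM against 102 (3.24, 3.17 to 3.31) and Hspa5, BiP, 1122 against 430 (1.38). In its lowest alternative Hspa5 was 0.84. Sec61b of the translocon was 2.39, Hsp90b1 1.97 and Ssr4 3.12. Sdf2l1 had the highest ratio of the list (4.53). The stress factor gene Ddit3 was the lower gene, at -1.03. Of 78 nuclear-coded oxidative phosphorylation genes, 51 were higher and 1 was lower (median 1.23), with Cox4i1 at 0.78, Cox8a at 0.95, Atp5h at 0.85 and Cox5a at 1.65. Centred on the median of all genes, 31 were higher.

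NADPH oxidase genes, whose enzyme makes the oxidants of the neutrophil, had no gene at least 2-fold higher, and glycolysis and haem genes were mostly within 2-fold. Beside them, 31.7% of all genes were higher and 17.4% lower. Of the 6 NADPH oxidase genes, 3 were at least 2-fold lower (median -1.25), among them Cybb (-1.91) and Ncf1 (-1.74), while Rac2 was -0.75 and Cyba -0.44. Of 16 glycolysis genes, 2 were higher and 2 lower, with Gapdh at 0.65, Gpi1 at 0.19, Pkm at -0.09 and Ldha at -0.49. Of 12 haem genes, 0 were higher and 2 lower, but 5 were higher without called doublets and 3 with every barcode given the same weight, and 4 were lower when centred on the median of all genes or with the totals without granule genes. Haem is the cofactor of myeloperoxidase, and Alas1, the first enzyme of its synthesis outside red cells, was 0.76 and Tspo 0.97, while the red cell form Alas2 was -2.80. Globin UMIs had a median of 5.41 per 10000 in the members, 7.49 in cartilage and 21.6 in the comparison, and their part in the Alas2 value was not tested.

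DNA replication genes were mostly higher in the members than in the S100a8 comparison, and mitosis genes were mostly within 2-fold. Beside myelocyte-like barcodes, described below, few replication genes were higher. Of 26 S phase genes, 20 were at least 2-fold higher, with a median of 1.52, beside 31.7% of all genes, among them Dut (2.55) and Nasp (1.15), while Pcna (0.70) and Slbp (0.47) were under 2-fold. In its lowest alternative Nasp was 0.60. The S phase count was 11 with the totals that leave out secondary and tertiary granule genes, S100a8, S100a9 and globins, under which 1899 of all genes were higher. Of 26 G2 and M phase genes, 1 was higher, with a median of 0.40. Top2a gave 271 CPM against 245 (0.15), Mki67 236 against 382 (-0.70), Ube2c was 0.40 and Hmgb2 -0.11. With every barcode given the same weight, 16 of the G2 and M phase genes were at least 2-fold higher.

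A proliferation score was given where 2 or more of the genes Top2a, Birc5 and Mki67 had a UMI. At 3000 UMIs per barcode, 39.98% (35.2% to 45.2%) of members had it, and unthinned 81.5% did. In the S100a8 comparison the share was 19.9% (18.3% to 21.7%), with 851 barcodes too shallow to thin, and among those past the gene floor it was 37.4% (34.5% to 40.3%). The intervals of the members and of the comparison barcodes past the same gene floor overlapped. Free RNA of these genes was not separated from the cells' own.

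**Figure D3:**
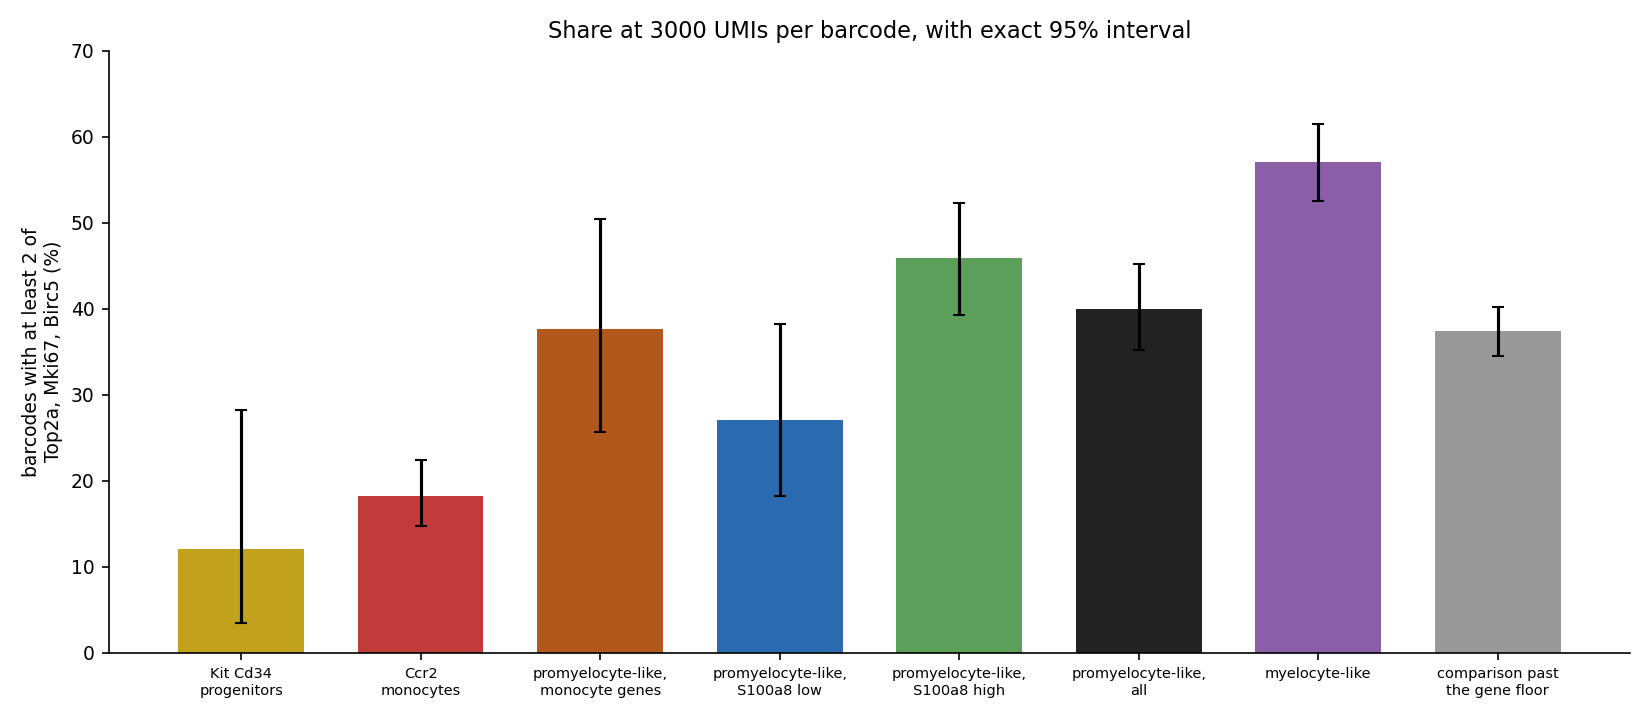
Share of barcodes in which 2 or more of Top2a, Birc5 and Mki67 had a UMI after thinning to 3000 UMIs (bars, percent) with exact 95% intervals that cover counting error only. Within the promyelocyte-like barcodes the share was lowest with low S100a8 (27.1%) and highest with high S100a8 (45.8%), and myelocyte-like barcodes reached 57.1%.

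The stages next to these cells were drawn from barcodes past the same limits. Myelocyte-like barcodes (487), with S100a8 of at least 50 per 10000, Elane below 3 UMIs and at least 3 UMIs of both Fcnb and Camp, are the step after. Against them, 2582 of 9062 genes (28.5%) were at least 2-fold higher in the promyelocyte-like barcodes and 863 (9.52%) lower. All 24 nucleolar genes were again higher (median 2.90), with 77 of 78 ribosomal protein genes and 28 of 34 endoplasmic reticulum genes. Of 26 S phase genes, 5 were higher and 0 lower (median 0.58), beside 28.5% higher among all genes. The spermidine synthase gene Srm gave 107 CPM in the members and 2.10 in myelocyte-like barcodes. Of the secondary granule genes 12 of 16 were lower, with Ltf at -5.57. Fcnb (-0.20) and Camp (-2.25) are on that list and were used to choose the myelocyte-like barcodes, and Camp was among the 12. Of G2 and M phase genes 0 were higher and 3 lower (median -0.34). The proliferation share was 57.1% (52.6% to 61.5%), beside 39.98% of members, and intervals of counting error in 1 pool do not test this difference. Scrublet called 52 of the 487 and 9 of the 384 members as doublets, and the part of doublets in the share was not tested.

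Among the 10 highest and 10 lowest genes of this comparison, a length set after the data were seen, Dmkn (7.57), Cst7 (6.63), Nme4 (6.47), BC035044 (5.91) and Gbp5 (5.53) stood beside the primary granule genes at the top. Of the latter, Elane, Mpo and Prtn3 were used to choose the members. Ly6g (-5.79), Plbd1 (-5.31), Slfn1 (-5.18), Ifitm6 (-5.18), St3gal5 (-5.12), Fpr2 (-5.02) and AA467197 (-4.91) were at the bottom. Col10a1 (-5.99) and Ibsp (-5.23), cartilage and bone genes, were there because a single myelocyte-like barcode held 98.5% and 52.1% of their UMIs.

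Ccr2 monocytes (415 other barcodes with at least 2 Ccr2 UMIs, at least 1 of Csf1r and S100a8 below 50 per 10000) are the neighbouring lineage. Against them, 1214 of 9201 genes (13.2%) were at least 2-fold higher in the members and 1763 (19.2%) lower. Here 2 of 78 ribosomal protein genes and 10 of 24 nucleolar genes were higher. S phase genes were higher in 17 of 26 cases (median 1.12). The 10 highest genes were Ms4a3 (7.72), Prss57 (7.50), Camp (7.49), Elane (7.44), Orm1 (7.21), Itgb2l (6.96), Dach1 (6.79), Wfdc21 (6.65), S100a8 (6.54) and S100a9 (6.498). Elane was used to choose the members and S100a8 to choose the monocytes, so the heights of both follow from the choice. Camp went with S100a8 over the members (Spearman's rho 0.86), so it is not free of that choice. The 10 lowest were Ighg2c (-9.66), Slfn5 (-7.04), Sirpb1c (-6.91), Gpr35 (-6.61), Camk1d (-6.52), the MHC class II gene H2-Eb1 (-6.40), Ifi27l2a (-6.16), Gm6377 (-6.14), Ifi207 (-6.13) and the chemokine gene Ccl2 (-6.11). Progenitors with at least 2 Kit UMIs and 1 of Cd34 numbered 33, so their levels are given with no count of genes. In them Mpo gave 819 CPM and Prtn3 567, with 23.3% and 25% of the UMIs in a single barcode, and Elane gave 29.5 CPM and Cebpe 3.94.

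The members were of more than 1 kind. A sum of Irf8, Csf1r, F13a1 and Ccr2 of at least 3 per 10000 set apart 64 members with monocyte genes, and S100a8 split the other 320 into 84 with low and 236 with high levels at 50 per 10000. These splits used S100a8 and the 4 monocyte genes, whose differences are therefore descriptions. Their median depths were 26517.5, 23096 and 19197 UMIs. The name promyelocyte-like follows the rule and covers all kinds. At 3000 UMIs per barcode, Cebpe was seen in 6.33% of the 64 and in 31.8% of low S100a8 members. Camp, a secondary granule gene, gave 56806 CPM in the 70 members without monocyte genes that had at least 500 S100a8 UMIs per 10000. For the 64 and these 70 members the name is least certain.

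Across the 320 members without monocyte genes, Elane, Mpo, Ctsg and Ms4a3 were highest at intermediate S100a8 and lower at the last step. Members were divided at 5, 50, 200 and 500 S100a8 UMIs per 10000, giving 50, 34, 80, 86 and 70 members. Elane gave 5642, 14539, 15965, 14540 and 7310 CPM along these steps. Ctsg gave 4280, 7177, 5895, 3224 and 645 CPM, which is the lowest value of the 4 genes at the last step. Mpo gave 6175, 8125, 7407, 5963 and 2268 CPM, and Ms4a3 872, 1692, 1577, 1385 and 832 CPM. Cd63, also of the primary granule list, did not follow them and gave 604, 1060, 1140, 1247 and 1172 CPM.

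Secondary granule genes differed in the step at which they were first high. Fcnb gave 8.64, 97.0, 571, 1213 and 2035 CPM, and Camp 44.6, 85.1, 2207, 18832 and 56806 CPM. Ngp gave 28.8 CPM at the first step and 18072 at the last. Lcn2 gave 35.3, 37.3 and 59.4 CPM at the first 3 steps and 826 and 3116 after them. Ltf gave 8.64, 10.4 and 8.39 CPM at the first 3 steps and 293 and 589 at the others, so Fcnb and Camp were higher at a step where Ltf was not. Summed over cartilage barcodes, the measure used for the steps, Camp gave 9.91 UMIs per 10000. Its median there was 0.530 per 10000, with up to 289 in a barcode. The lowest Camp values (44.6 and 85.1 CPM) are thus not above the summed level of free RNA.

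**Figure D4:**
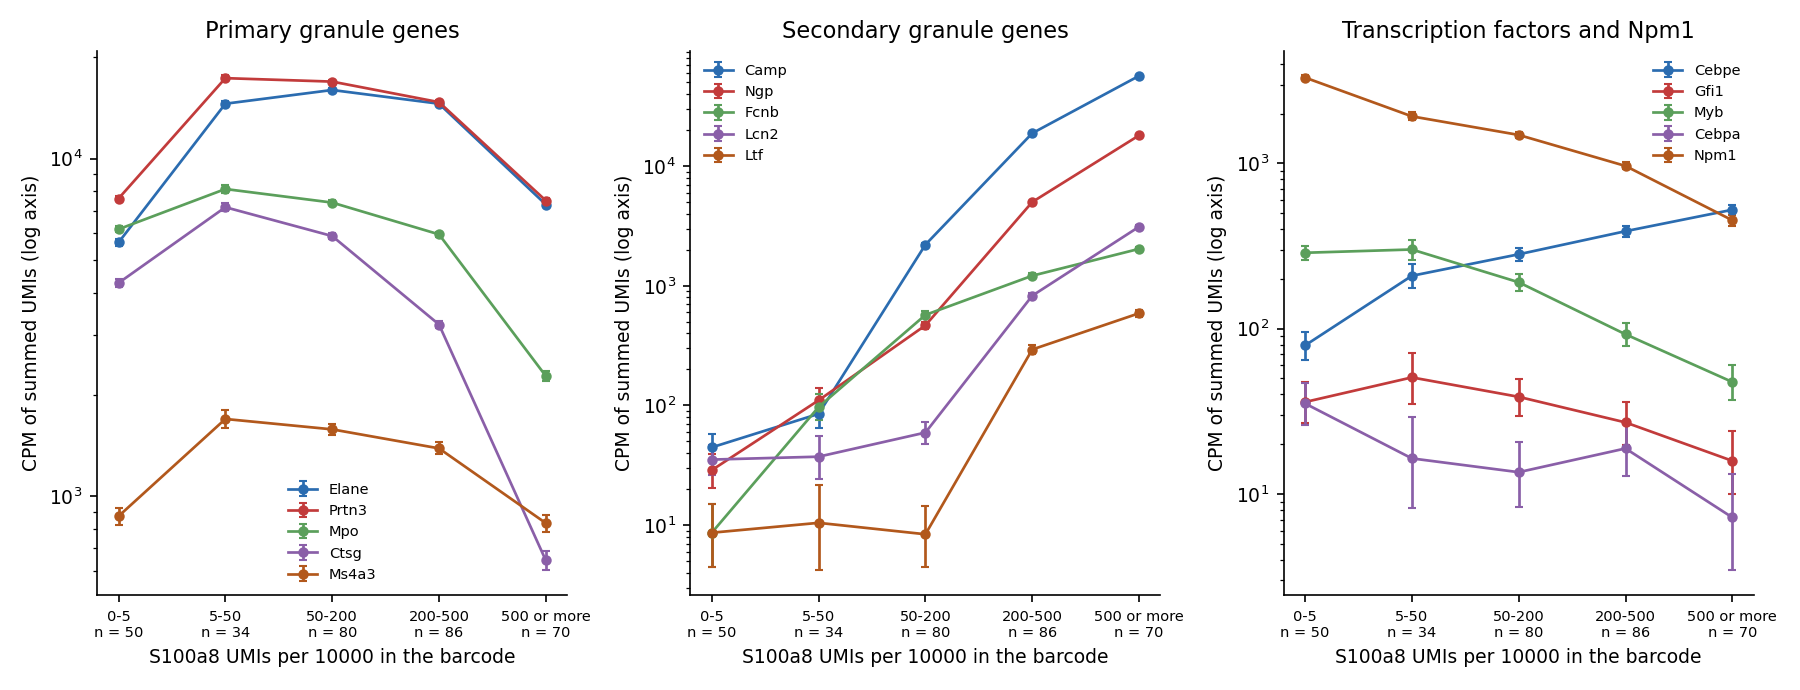
CPM of summed UMIs (log axis) with exact 95% Poisson intervals over 5 steps of S100a8 among the 320 promyelocyte-like barcodes without monocyte genes. At the last step Ctsg was at 645 CPM and Elane at 7310, Fcnb and Camp were high at an earlier step than Ltf, and Cebpe and Npm1 ran in opposite directions.

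Regulators and growth genes differed over the same steps. Cebpe gave 79.2, 209, 282, 389 and 524 CPM, while Myb gave 288, 301, 191, 92.5 and 47.6 and Npm1 3307, 1927, 1487, 965 and 453. Gfi1 was at 36.0, 50.7, 38.7, 27.1 and 15.9 CPM. Cd34 gave 104 CPM at the lowest S100a8, 1.49 at the next step and 0 in the 236 members above, and Kit gave 79.9 and, at the last step, 12.3. Calr gave 1947 CPM at the first step and 194.7 at the last, and ribosomal proteins took 29.3% and 16.6% of UMIs. The proliferation share was 26.2%, 28.8%, 34.2%, 44.2% and 60.2%, the reverse order of Myb from the second step on.

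Between high and low S100a8 members, 351 of 7331 genes (4.79%) were at least 2-fold higher and 730 (9.96%) lower. Of 22 primary granule genes 3 were higher and 2 lower (median 0.26), of 15 secondary granule genes 14 were higher (median 4.96), and of 6 NADPH oxidase genes 5 were. Of 24 nucleolar genes 17 were lower and 0 higher (median -1.16), while 0 of 78 ribosomal protein genes passed 2-fold in either direction (median -0.37). Transcription factors were higher in 5 and lower in 11 of 24 cases. Id2 (2.82), Ets1 (1.92), Cebpe (1.70) and Cebpd (1.14) were higher, and Klf4 (-4.03), Sox4 (-3.53), Zeb2 (-1.89) and Myb (-1.38) lower. The 10 highest genes were Camp (8.74), Ngp (7.06), S100a9 (6.98), Cd177 (6.42), Chil3 (6.39), S100a8 itself (5.38), Lcn2 (5.13), Fcnb (5.06), Itgb2l (5.03) and Orm1, which gave 258 UMIs against 0. Lowest were Prss34 and Mcpt8, of whose member UMIs a single barcode for each gene held 99.5% and 73.2%. Then came Fabp5 (-4.22), Sox4, S100a10 (-3.52), Sparc (-2.92, with 49.8% of the low S100a8 UMIs in a single barcode), Egr1 (-2.71), Hmgn1 (-2.70), Fkbp11 (-2.69) and Lgals1 (-2.69).

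The 64 members with monocyte genes held the same proteases at lower levels. Elane gave 2955 CPM in them and 8538 in low S100a8 members (-1.53), Ctsg 1877 and 5223 (-1.48) and Mpo 3776 and 6810 (-0.85). Over these 64 members the median was 26.7 per 10000 for Elane, 34.2 for Mpo and 18.2 for Ctsg, and Ctsg, which the rule did not use, was seen in all 64. Irf8, chosen on, gave 308 CPM against 23.8, above the 161 of Ccr2 monocytes, and F13a1 gave 423 against 681 in those monocytes. Of genes not used to choose them, Ms4a6c gave 448 CPM against 40.3 and 875 in monocytes, Klf4 80.2 against 28.2 and 312, and Cx3cr1 23.1 against 4.86 and 53.6. Ly6c2 gave 2050 CPM against 674 and 1651. Fcgr1, the last gene of the monocyte list, gave 0 UMIs in the 64 members, 2 in low S100a8 members and 138 in monocytes. The 10 highest genes were Camp (5.08), Ltf (4.599), F13a1 (4.34), S100a4 (4.24), Ngp (4.18), Chil3 (4.10), S100a6 (3.83), Lcn2 (3.75), S100a9 (3.72) and Irf8 (3.70). F13a1 and Irf8 were used to choose the 64, and only the low S100a8 members had a limit on S100a8.

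In the same 64 members, 516 of 6601 genes (7.82%) were at least 2-fold higher than in low S100a8 members and 161 (2.44%) lower. Of 21 primary granule genes compared, 3 were higher and 9 lower, with a median of -0.37. Cebpe gave 23.6 CPM against 121 (-2.36, -2.86 to -1.89), Gfi1 13.7 against 40.8 (-1.57), Cd63 113 against 752 (-2.74), Nkg7 119 against 747 (-2.65), Vcam1 6.05 against 166 (-4.78) and Prss57 67.1 against 290 (-2.11). Hdc (-2.28), Vat1 (-2.35) and Spint2 (-2.02) were also among the 10 lowest, with Prss34 and Mcpt8, which had most of their member UMIs in a single barcode for each gene. Of 12 secondary granule genes 8 were higher and 1 lower, and of 14 tertiary granule and mature neutrophil genes 7 were higher and 0 lower, but a single member held 24.8% of their Camp UMIs and 7 of the 64 had S100a8 above 50 per 10000. Low S100a8 members were chosen below that limit and the 64 were not. Differences in genes that go with S100a8 therefore cannot be told apart from the choice. Scrublet called 2 of the 64 as doublets. Ribosomal (0 of 78 higher) and nucleolar genes (0 of 24) were within 2-fold.

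**Figure D5:**
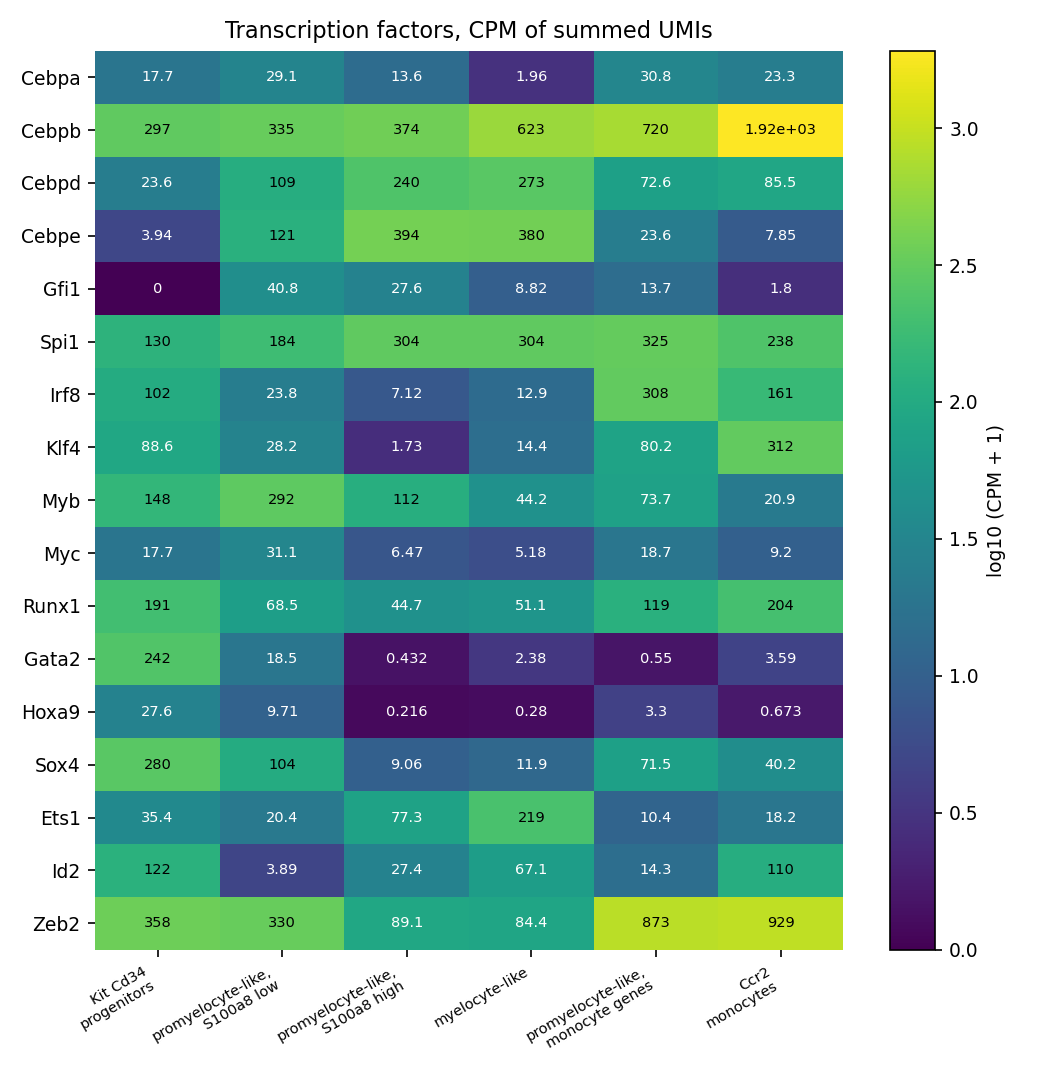
CPM of summed UMIs (printed in each cell, colour on a log10 scale) of 17 transcription factor genes in 6 groups of barcodes. Gfi1 was highest in low S100a8 members (40.8 CPM), Cebpe in high S100a8 members (394) and myelocyte-like barcodes (380), Irf8 in members with monocyte genes (308), and Gata2 in the 33 Kit Cd34 progenitors (242).

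Over all 384 members, levels per 10000 UMIs were related gene by gene, as a description over barcodes of 1 pool that share a library and total. Spearman's rho was 0.86 between Elane and Prtn3, 0.78 between Elane and Ms4a3, 0.77 between Elane and Nkg7 and 0.74 between Mpo and Ctsg. Elane with Mpo gave 0.61 and Elane with Ctsg 0.60. Elane, Prtn3 and Mpo were used to choose the members, and the 384 hold the kinds described above, so these values describe the chosen set only. Against Camp, Elane gave 0.06, Mpo -0.37 and Ctsg -0.53, and against Mki67 Ctsg gave -0.36. Ctsg with Hspa5 gave 0.51 and Mpo with Hspa5 0.57, where Elane with Hspa5 gave 0.18.

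The reporter sequences of the alleles were counted in the same barcodes. WPRE, the viral element that ends the tdTomato transcript, gave 273 UMIs in 179 members (46.6%, 41.5% to 51.7%), with at most 6 UMIs in a member. The authors took a WPRE value above 14 as the cutoff for a labelled cell, and 0 members had more than 14 UMIs. Free WPRE RNA was not measured. WPRE in the members was at 0.321 UMIs per 10000, below the 0.519 of S100a8 comparison barcodes past the gene floor, of which 37.1% held it. The tdTomato sequence gave 13 UMIs in 12 members and EGFP 3 in 3. Cre gave 0 UMIs in the 384 members, which allows up to 0.781% of barcodes with a UMI (3 counts) and does not limit how many cells express it.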

How the data were processed

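Single cells of 3 pooled mice were profiled with 10x Genomics chemistry. The authors aligned the reads to mm10 and made the deposited counts (UMIs per gene and barcode, not normalized) with Cell Ranger 3.1.0, and the submitters' processing notes also name Seurat 3. The matrix held 31053 genes and 12564 barcodes.

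From these, UMIs were summed over the barcodes of a group and given per 1000000 (CPM). A gene was compared where the sum over both groups reached 50 UMIs, and called at 2-fold. With 1 pool there is no test. Intervals are exact 95% Poisson, conditional binomial (ratios) or Clopper-Pearson intervals and cover counting error only, and a count of 0 was taken to allow 3 counts. Shares were thinned to 3000 UMIs (100 draws). Doublets were called with Scrublet (scanpy 1.11.5, expected rate 6%) and kept. Python 3.11.15, numpy 2.4.6, scipy 1.17.1 and pandas 2.3.3 were used, and ratios and intervals were tested on simulated data.

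The members and gene lists were chosen with earlier results of these data known. Genes named are the 15 highest and 15 lowest with at least 200 UMIs, all listed transcription factors and receptors, the 4 most abundant genes of the other lists and the cell type markers that decide a label, and others were chosen after their values were seen. For the other comparisons 10 genes each way were taken, also after the data were seen. S6 kinases and Rps19bp1, matched by name, were removed from the ribosomal list after its values were seen. Promoters are from RefSeq (7 of 8 genes matched). A few genes that this rule names are not reported here.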

Additional observations from a re-analysis of the deposited data

How the results depend on the processing

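There were 344 members with a summed Elane, Prtn3 and Mpo level of at least 80 and 355 to 400 under the other alternatives, against 384. The proliferation share was 81.5% not thinned and 71.4% with at least 1 of the 3 genes, and 38.4% to 41.0% otherwise. Totals without secondary and tertiary granule genes, S100a8, S100a9 and globins, chosen after seeing the data, gave 1899 genes at least 2-fold higher and 2829 lower. The other alternatives gave 2201 to 3919 higher and 1294 to 2460 lower. Of 84 named genes past 2-fold, at most 7 were under it in any alternative. The log2 ratio of Gata2 turned to -0.92 at the level of 80 and to -0.79 without members that hold genes of another type, also chosen after seeing the data. For haem genes, 5 were higher without called doublets, against 0. Oxidative phosphorylation genes higher numbered 25 with the totals without granule genes, against 51, and receptors lower 7, against 4. The cause of these differences was not tested. No paired analysis was possible because the pooled barcodes carry no sample or replicate number, and for the same reason no replicate could be left out. Depth limits the low genes: a log2 ratio such as that of Slc4a8, with 2 UMIs in the comparison, has an interval from 6.02 to 10.94.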
